A study of Mus musculus with 9 samples.

Results

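The transcription factor ATF4 and genes of the amino acid stress response were followed in bone marrow neutrophils, short-lived phagocytes made in large numbers, from young mice with and without an active form of RagC. The genes were Atf4, Ddit3, Ddit4, Trib3, Asns, Sesn1, Sesn2, Sesn3, Slc3a2 and Slc7a5, taken by symbol from a table of 7197 genes. Of these 10 genes, 6 were listed (Atf4, Ddit3, Sesn2, Slc3a2, Ddit4 and Asns) and 4 were not listed in the table (Trib3, Slc7a5, Sesn1 and Sesn3). All 6 listed genes reached the minimum mean of 10 normalized counts and entered the test across 6673 genes, with 0 left below it.

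The data comprised 5 Rragc+/+ libraries, labelled RagC S74N (+/+), and 4 RragcS74N/+ libraries, labelled RagC S74N (KI/+). All were made from animals aged 2 months, and the labels name no treatment. RragcS74N/+ mice are knock-in animals that carry a single edited allele of Rragc in the germline, in every cell, so that neutrophils and the marrow around them shared the genotype. Cells were sorted as CD45+, CD11b+ and Ly6G+, and their polyadenylated RNA was sequenced from the 3′ end. The labels do not say which library came from which animal, so p-values measure the spread between these libraries.

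RagC is part of the Rag GTPases, which recruit the kinase complex mTORC1 to the lysosome when amino acids are plentiful. When amino acids are short, the kinase GCN2 phosphorylates the translation factor eIF2, and the resulting slowdown of translation favours the production of ATF4 protein. Active mTORC1 also promotes translation of ATF4, so this factor responds to both shortage and growth signals. ATF4 acts with C/EBP proteins on genes for amino acid synthesis and uptake, and on genes that restrain growth. Among the latter, the sestrins hold back the GATOR2 complex upstream of the Rag GTPases, and DDIT4 (REDD1) holds back mTORC1 through the TSC complex. The libraries measured messenger RNA, and ATF4 protein is controlled largely at translation.

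The DNA element that ATF4 binds with its C/EBP partners was searched for as TGATGNAA, on both strands, in RefSeq promoters of the mouse assembly GRCm38.p6 (250 bases before to 50 after each start site). Of the 10 genes, 9 had a promoter in this set, with 10 promoters in all, and Slc7a5 had none. The letters were present in promoters of 2 of them, Asns and Trib3, compared with 3.97% of 32851 mouse promoters and 2.20% of 7285 promoters of listed genes. Among 11 further listed ATF4 targets of the stress response with a promoter, 2 held a match, Chac1 and Herpud1. The 30 bases around each of these 4 matches are shown because they are the promoters in which the element can be read directly, with the element in capitals and each sequence on the sense strand of its gene.
Asns, chr6:7693214-7693243, minus strand: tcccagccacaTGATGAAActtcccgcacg
Trib3, chr2:152344028-152344057, minus strand: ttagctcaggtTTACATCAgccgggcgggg
Chac1, chr2:119351038-119351067, plus strand: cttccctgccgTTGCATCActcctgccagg
Herpud1, chr8:94386306-94386335, plus strand: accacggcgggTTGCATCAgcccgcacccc
The Asns element reads forward and began 23 bases before the start site. The Trib3 element reads on the opposite strand and began 14 bases after the start site. Those of Chac1 and Herpud1 also read on the opposite strand and began 193 and 112 bases before it. The windows of Atf4, Ddit3, Ddit4, Slc3a2 and the 3 sestrin genes did not contain these letters. The ATF/CRE element TGACGTCA (1.79% of all promoters) was in none of the 10 promoters, and its shorter core TGACG, which the full element includes, was present in 20.8% of all promoters and in those of Atf4, Trib3, Asns and Sesn1. A match describes the letters of these windows, and sites elsewhere were not searched.

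Values are given as normalized counts, the reads of a gene divided by a size factor for its library. Atf4 was the most abundant of the 6 genes and ranked above 92.4% of listed genes. It was followed by Sesn2 (72.8%), Ddit3 (70.9%), Slc3a2 (47.9%), Ddit4 (21.7%) and Asns (11.5%). Reads from 3′ ends do not grow with transcript length, so these levels were compared between genes without division by length. Other differences in how well 3′ ends of each gene are captured were not corrected here. On the log2(value + 1) scale, Atf4 exceeded Sesn2 by 1.87 ± 0.19 (SD, n = 9 libraries; exact sign-flip permutation test, two-sided, adjusted p = 0.00977 over 5 neighbouring pairs). Sesn2 exceeded Ddit3 by 0.18 ± 0.35 and lay above it in 6 of 9 libraries, so the order of these 2 genes could not be told from their spread (adjusted p = 0.180 by the same exact test). Ddit3 exceeded Slc3a2 by 1.13 ± 0.76, Slc3a2 exceeded Ddit4 by 1.3 ± 0.56, and Ddit4 exceeded Asns by 0.52 ± 0.57 (adjusted p = 0.0130, 0.00977 and 0.0391 by the same exact permutation test). The smallest unadjusted p that 9 libraries allow in this test is 0.00391. Neighbours were ordered by the mean of the same values that were tested, so each p measures only how steady the order was across libraries. Atf4, Sesn2 and Ddit3 were thus measured above the uptake gene Slc3a2, and the synthesis gene Asns was the scarcest of those listed.

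**Figure D1:**
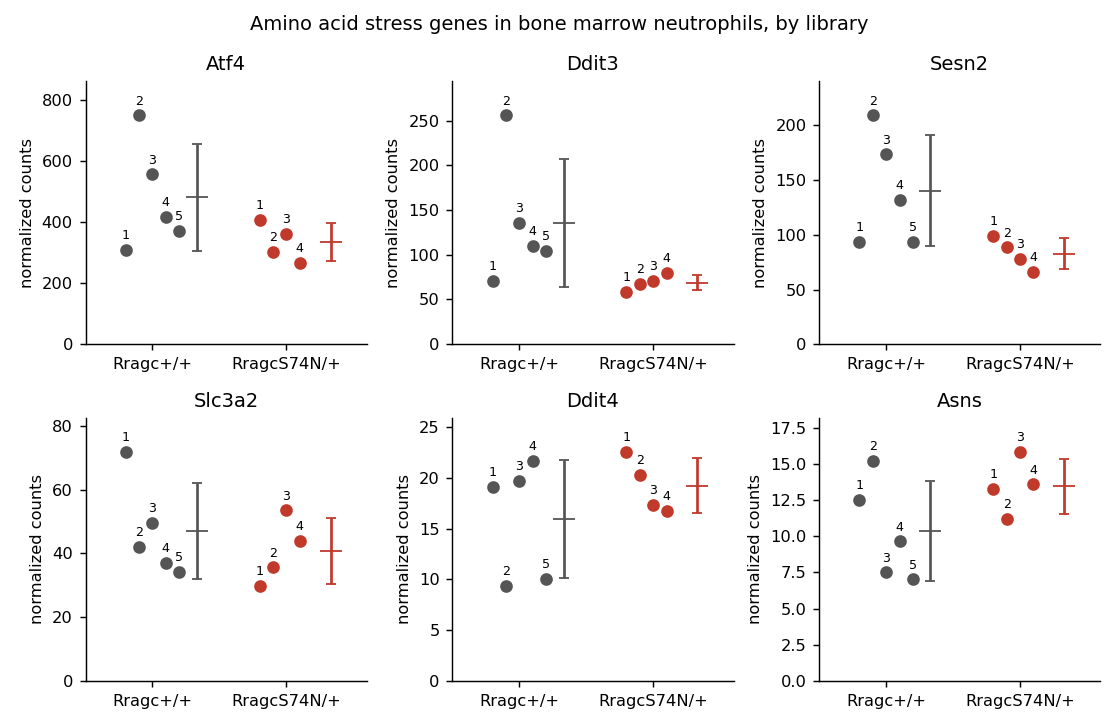
Normalized counts (vertical axes, linear, from 0) of the 6 listed genes in each Rragc+/+ (grey) and RragcS74N/+ (red) library, with replicate numbers above the points and the mean ± SD of each genotype beside them. Rragc+/+ replicate 2 was the highest library for Atf4, Ddit3 and Sesn2, and in all 6 genes the genotypes overlapped.

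Whether the RragcS74N allele altered these genes was tested with limma on log2(value + 1), with p-values adjusted by Benjamini-Hochberg over the 6673 genes. With this test, 0 of the 6 genes passed the adjusted threshold of 0.05, as did 0% of all genes tested (smallest adjusted p = 0.713, limma). Means of 4 genes were lower in RragcS74N/+ (Atf4, Ddit3, Sesn2 and Slc3a2) and means of 2 were higher (Ddit4 and Asns). At an unadjusted p under 0.05, 2 of the 6 genes were lower (Ddit3 and Sesn2), against 3.81% of all genes tested, and 0 were higher, against 2.01%. edgeR and DESeq2 on the recovered reads also called 0 genes of the table, with 460 and 447 genes at an unadjusted p under 0.05, compared with 388 for limma. None of the 6 genes separated the genotypes completely, which 1.69% of all tested genes did.

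Atf4 measured 308, 750.2, 557, 418 and 372 normalized counts in Rragc+/+ replicates 1 to 5. In RragcS74N/+ replicates 1 to 4 it measured 406, 302, 362 and 268. The highest libraries were Rragc+/+ replicates 2 and 3, the remaining Rragc+/+ libraries lay among those of RragcS74N/+ or just above them, and the groups overlapped. The means were 481 ± 176 (SD, n = 5) and 334 ± 61.8 (SD, n = 4). Their difference of -0.47 on the log2 scale (SE 0.24, 95% interval -0.99 to 0.05) did not pass the test (limma, adjusted p = 0.713), and its unadjusted p was above 0.05.

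Ddit3 encodes CHOP, the C/EBP family factor induced by ATF4 that promotes death of stressed cells. It measured 70.5, 256, 136, 110.1 and 104 normalized counts in the Rragc+/+ libraries and 58.3, 67.1, 70.8 and 79.4 in the RragcS74N/+ libraries. In 4 of 5 Rragc+/+ libraries the value lay above every RragcS74N/+ library, while Rragc+/+ replicate 1 lay among them. The means were 135 ± 71.3 (SD, n = 5) and 68.9 ± 8.74 (SD, n = 4), and the log2 difference was -0.84 (SE 0.29, 95% interval -1.46 to -0.21; limma, adjusted p = 0.713). By p-value Ddit3 stood at rank 53 of 6673 genes.

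Sesn2 encodes sestrin 2, a leucine-binding protein that restrains mTORC1 and is itself a target of ATF4. Its values were 93.5, 209, 173, 132 and 93.2 normalized counts in Rragc+/+ and 98.8, 88.4, 78.3 and 65.8 in RragcS74N/+. In 3 of 4 RragcS74N/+ libraries Sesn2 was below the lowest Rragc+/+ library, and RragcS74N/+ replicate 1 was above 2 of the Rragc+/+ libraries. The means were 140 ± 50.8 (SD, n = 5) and 82.9 ± 14.1 (SD, n = 4), with a log2 difference of -0.69 (SE 0.25, 95% interval -1.23 to -0.16; limma, adjusted p = 0.713). Sesn2 stood at rank 66 by p-value. Its relatives Sesn1, a target of p53, and Sesn3, a target of FoxO factors, were not listed.

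Slc3a2 encodes the heavy chain CD98, which pairs with the light chain of Slc7a5 to import large neutral amino acids such as leucine. Its values were 71.8, 42.1, 49.7, 37.0 and 34.1 normalized counts in Rragc+/+ and 29.8, 35.6, 53.5 and 43.9 in RragcS74N/+. Rragc+/+ replicate 1 was the highest, and the other libraries of both genotypes were intermixed. The log2 difference was -0.18 (SE 0.25, 95% interval -0.71 to 0.35; limma, adjusted p = 0.819) between means of 46.9 ± 15.1 (SD, n = 5) and 40.7 ± 10.3 (SD, n = 4).

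Ddit4 and Asns were the scarcest. Ddit4, which is also induced by hypoxia and glucocorticoids, measured 19.1, 9.35, 19.7, 21.7 and 10.03 normalized counts in Rragc+/+ and 22.5, 20.3, 17.3 and 16.7 in RragcS74N/+. Rragc+/+ replicates 2 and 5 were the 2 lowest libraries, and the other 7 lay close together. The means were 16.0 ± 5.82 (SD, n = 5) and 19.2 ± 2.72 (SD, n = 4), a log2 difference of 0.32 (SE 0.29, 95% interval -0.31 to 0.95; limma, adjusted p = 0.752).

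Asns encodes asparagine synthetase, which makes asparagine from aspartate and glutamine. It measured 12.5, 15.2, 7.50, 9.65 and 7.02 normalized counts in Rragc+/+ and 13.3, 11.2, 15.8 and 13.6 in RragcS74N/+. The 3 lowest libraries were Rragc+/+ replicates 3, 4 and 5, and the other 2 Rragc+/+ libraries lay within the RragcS74N/+ range. The means were 10.4 ± 3.46 (SD, n = 5) and 13.5 ± 1.90 (SD, n = 4), a log2 difference of 0.39 (SE 0.30, 95% interval -0.25 to 1.02; limma, adjusted p = 0.733).

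The depth behind these values differed between the genes. Atf4 had 256 to 642 reads per library, Ddit3 66 to 219 and Sesn2 63 to 185, whereas Slc3a2 had 34 to 109, Ddit4 8 to 34 and Asns 7 to 21. Counting error alone gives a coefficient of variation of 4.61% for Atf4, 9.32% for Ddit3 and 8.79% for Sesn2 at their mean reads, and of 13.8% for Slc3a2, 21.9% for Ddit4 and 26.9% for Asns. The measured coefficient of variation among Rragc+/+ libraries was 36.6% for Atf4, 52.7% for Ddit3 and 36.2% for Sesn2, several times the counting error. For Asns it was 33.3% in Rragc+/+ and 14.1% in RragcS74N/+, and for Ddit4 36.5% and 14.1%, and both RragcS74N/+ values lay below the counting error. The Rragc+/+ values lay above it. The 3 genes with the most reads also varied less among RragcS74N/+ libraries (18.5% for Atf4, 12.7% for Ddit3 and 17.0% for Sesn2), and this difference in spread was not tested.

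Rragc+/+ replicate 2 stood apart from the other libraries. It had the fewest recovered reads, 1214295 against up to 1973957, and its mean Spearman correlation with the other libraries over listed genes was 0.901, compared with 0.935 to 0.954 in the others. Without this library, the log2 difference was -0.57 for Ddit3, -0.53 for Sesn2 and -0.29 for Atf4 (limma, adjusted p = 0.994 for each). The 2 genes with an unadjusted p under 0.05 therefore kept it without the deviating library, where 1.87% of all genes were lower by the same rule, and the genotype means of Atf4 came closer together. The overlap in Ddit3 came from Rragc+/+ replicate 1 and that in Sesn2 from RragcS74N/+ replicate 1. Without the former 4.44% and without the latter 3.21% of all tested genes did not overlap.

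The transcript ends of Ddit3 and Sesn2, which a 3′-end library reads, were rich in G and C. The last 500 nucleotides of the transcript held 57.0% G and C in Ddit3, 56.0% in Sesn2 and 49.8% in Atf4, against a median of 43% over tested genes, which placed Ddit3 above 96.3% and Sesn2 above 94.5% of them. With each library's trend on GC content removed, the log2 difference was -0.53 for Ddit3, -0.42 for Sesn2 and -0.36 for Atf4 (limma, adjusted p = 0.882 for each). Ddit3 then had an unadjusted p under 0.05 and Sesn2 no longer did, which left 1 of the 6 genes in place of 2, against 2.73% of all genes lower by this rule in that setting.

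**Figure D2:**
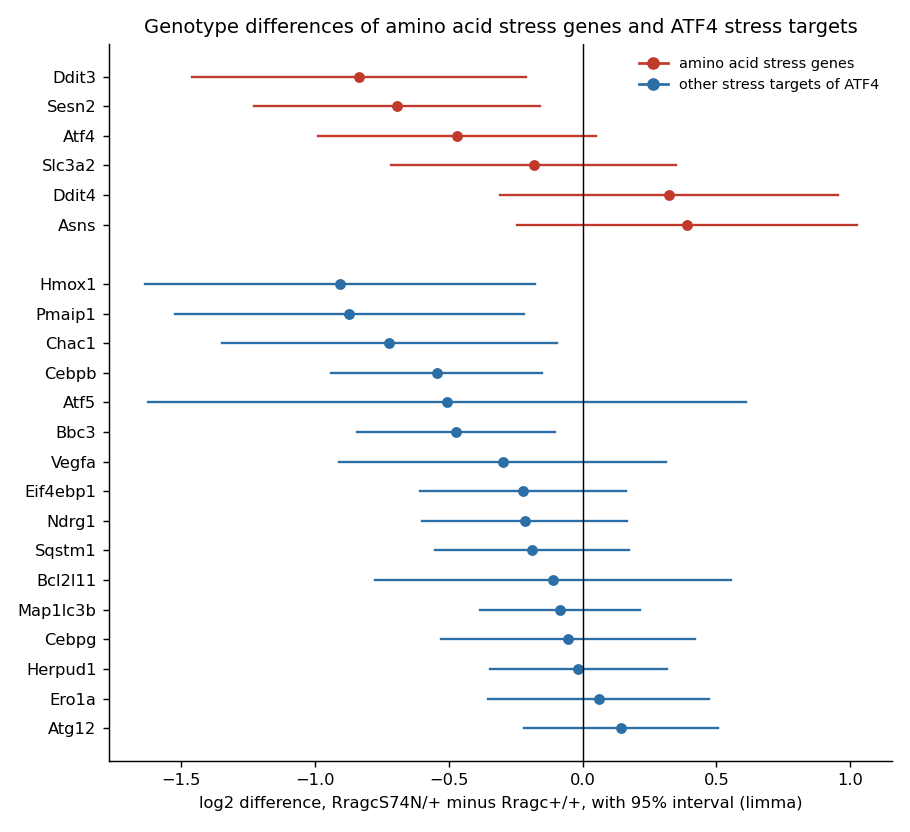
Log2 difference between RragcS74N/+ and Rragc+/+ (horizontal axis, negative where lower in RragcS74N/+) with its 95% limma interval for the 6 listed genes (red) and 16 further ATF4 targets of the stress response (blue). The intervals of Ddit3 and Sesn2 lay below 0, and those of Atf4, Slc3a2, Ddit4 and Asns included 0. A negative difference was found in 14 of the 16 targets, beside 46.6% of all genes tested.

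Atf4 and Sesn2 varied together across libraries. Pearson's r of their log2 values was 0.94 and Spearman's rho 0.92 over 9 libraries (exact permutation test over pairings, two-sided, adjusted p = 0.00364 and 0.0197 over 15 pairs of genes; unadjusted p = 0.000243 and 0.00131). With each genotype's mean removed, r was 0.93 (exact permutation, adjusted p = 0.00525), and without Rragc+/+ replicate 2 it was 0.89 (exact permutation, adjusted p = 0.0387). Without the 2 libraries farthest from the median of Atf4, Rragc+/+ replicates 2 and 3, it was 0.76 (exact permutation, p = 0.0369, adjusted p = 0.439). With the GC trend removed, r was 0.90 (exact permutation, adjusted p = 0.0172). The relation of Atf4 with Sesn2 was thus seen within genotypes and without the deviating library, and lost its adjusted call in 7 libraries. With genotype means removed, r with Atf4 was 0.97, 0.97 and 0.96 for Lfng, Kctd2 and Fbxo31. A high correlation with Atf4 was therefore not particular to Sesn2.

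Ddit3 was correlated with Atf4 (r = 0.85, rho = 0.65) and with Sesn2 (r = 0.85, rho = 0.55) over 9 libraries, each with an adjusted p of 0.0291 for r (exact permutation test) and of 0.499 and 0.607 for rho. Without Rragc+/+ replicates 2 and 3, r was 0.27 for Atf4 and 0.40 for Sesn2, so both relations rested on these libraries. The other 12 pairs did not pass the adjusted threshold. Among them, r was -0.06 between Atf4 and Asns and -0.42 between Atf4 and Ddit4, and neither sign was stable. For Asns, r was -0.56 without Rragc+/+ replicate 2 and 0.31 with genotype means removed, and for Ddit4 it was 0.16 without Rragc+/+ replicate 2 and -0.27 with genotype means removed. No relation of Atf4 with Asns, the listed gene of the 6 that has the C/EBP-ATF letters near its start site, could be told from the spread.

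**Figure D3:**
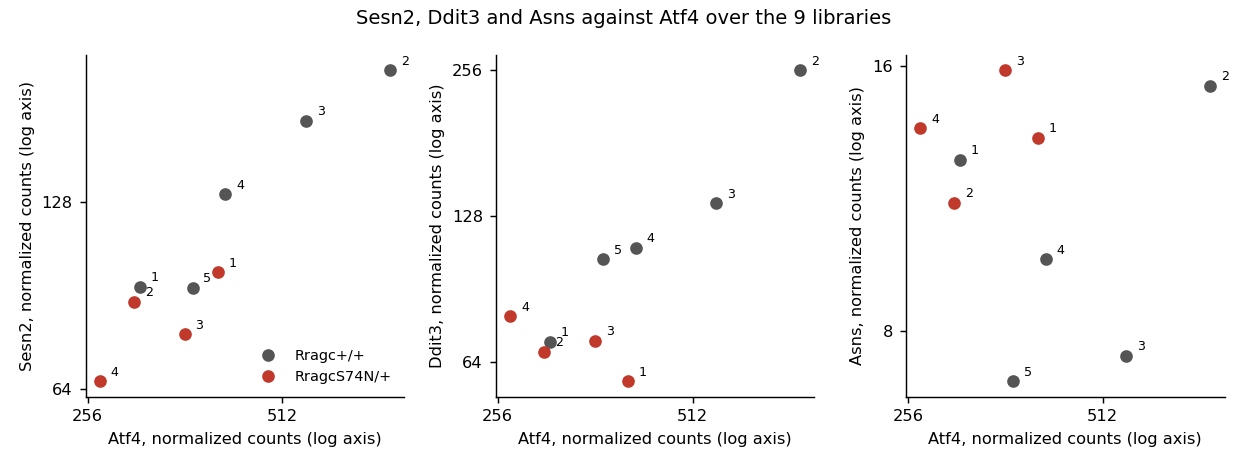
Normalized counts of Sesn2, Ddit3 and Asns (vertical axes) against Atf4 (horizontal axes), all on log axes, with 1 point for each Rragc+/+ (grey) or RragcS74N/+ (red) library and its replicate number. Sesn2 rose with Atf4 (r = 0.94, or 0.76 without Rragc+/+ replicates 2 and 3). Ddit3 did so mainly through Rragc+/+ replicates 2 and 3, and for Asns r was -0.06 over the 9 libraries.

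Genes with the most similar pattern were sought among the 3474 or 3475 other genes whose mean reached 50, by Pearson's r over the 9 libraries after each genotype's mean was removed. For Atf4 they were Lfng, Kctd2 and Fbxo31 (r = 0.97, 0.97 and 0.96), and for Sesn2 they were Gm10524, Rnf6 and Stim2 (r = 0.99 each). For Ddit3 they were Rpl8, Ndufa13 and Mrpl48 (r = 0.99, 0.97 and 0.97), and for Slc3a2 they were Tmed9, C1rl and Akt1 (r = 0.99, 0.91 and 0.90). Ddit4 was most like Alas1, Tspan13 and Cul3 (r = 0.96, 0.91 and 0.91), and Asns most like Rgs3, Ykt6 and Cdipt (r = 0.95, 0.95 and 0.92). These are the highest of all the correlations computed over 9 libraries that share their depth and base composition, and they are given as a description. Slc3a2, Ddit4 and Asns had means under 50 and could not be chosen.

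Other genes of the pathway were examined in 10 lists of 193 genes, of which 119 were listed and 109 tested. In the limma test 0 of the 109 passed the adjusted threshold. At an unadjusted p under 0.05, 9 were lower in RragcS74N/+ and 2 were higher, or 10.1% of the 109, beside the background of 3.81% and 2.01%. The differences were negative in 52 and positive in 57, with a median of 0.02 beside 0.02 over all genes tested.

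The further ATF4 targets of the stress response, which include partner factors, autophagy genes and regulators of cell death, numbered 25, of which 16 were listed and tested. Their differences were negative in 14 and positive in 2, with a median of -0.22 on the log2 scale against 0.02 over all genes tested. Of all genes tested, 46.6% had a negative difference. At an unadjusted p under 0.05, 5 of the 16 were lower, against 3.81% of all genes tested, and 0 were higher, against 2.01%. Without Rragc+/+ replicate 1, and again without replicate 3, 12 of 16 were negative, beside 48.3% and 46.8% of all genes tested. Without Rragc+/+ replicate 2, 14 were again negative and 4 of 16 were lower at an unadjusted p under 0.05, against 1.87% of all genes tested in that setting. The count at such a p was 2 of 15 with the GC trend removed (2.73% of all genes), 3 of 10 when a mean of 50 or more was required (3.65%) and 3 of 16 without RragcS74N/+ replicate 4 (2.14%). With the GC trend removed, 13 of 15 were negative, beside 51.4% of all genes. The median was then -0.18, beside -0.01 over all genes. The list was chosen with earlier results of these data known, and the set as a whole was not tested.

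Cebpb, a C/EBP partner of ATF4 and a regulator of granulocyte production, measured 346, 398, 432, 335 and 302 normalized counts in Rragc+/+ and 230.1, 314, 270.4 and 188 in RragcS74N/+. Its log2 difference was -0.55 (SE 0.18; limma, adjusted p = 0.713), and RragcS74N/+ replicate 2 overlapped the Rragc+/+ range. Bbc3, which encodes the pro-apoptotic protein PUMA, measured 117, 120.4, 129, 120.6 and 106 in Rragc+/+ and 67.0, 93.5, 103 and 80.5 in RragcS74N/+. The genotypes of Bbc3 did not overlap, and its log2 difference was -0.47 (SE 0.17; limma, adjusted p = 0.713). With the GC trend removed, the differences were -0.35 for Cebpb and -0.23 for Bbc3.

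Pmaip1, which encodes the pro-apoptotic protein NOXA, had means of 28.1 ± 10.1 normalized counts in Rragc+/+ (SD, n = 5) and of 14.4 ± 4.15 in RragcS74N/+ (SD, n = 4; log2 difference -0.87, SE 0.30; limma, adjusted p = 0.713). Hmox1, which encodes the haem-degrading enzyme haem oxygenase, measured 172 ± 104 (SD, n = 5) and 82.8 ± 23.7 (SD, n = 4), with Rragc+/+ replicate 2 the highest at 341 (log2 difference -0.91, SE 0.34; limma, adjusted p = 0.713). Chac1, which degrades glutathione and carries the element shown above, was named after its values were seen, as the last of the 5. It measured 15.8 ± 3.16 (SD, n = 5) and 9.41 ± 3.24 (SD, n = 4), from 6 to 21 reads per library (log2 difference -0.72, SE 0.29; limma, adjusted p = 0.713). Herpud1, the other target with a match to the element, measured 154 ± 13.4 (SD, n = 5) and 153 ± 13.6 (SD, n = 4), a log2 difference of -0.02 (95% interval -0.34 to 0.31). The most abundant of these targets, the autophagy gene Map1lc3b, measured 1482 ± 93.9 (SD, n = 5) and 1398 ± 79.1 (SD, n = 4; log2 difference -0.08, limma, adjusted p = 0.860). Among the listed stress genes and targets searched here, the 3 with a match in a promoter window were Asns, Chac1 and Herpud1. Their differences were 0.39, -0.72 and -0.02.

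**Figure D4:**
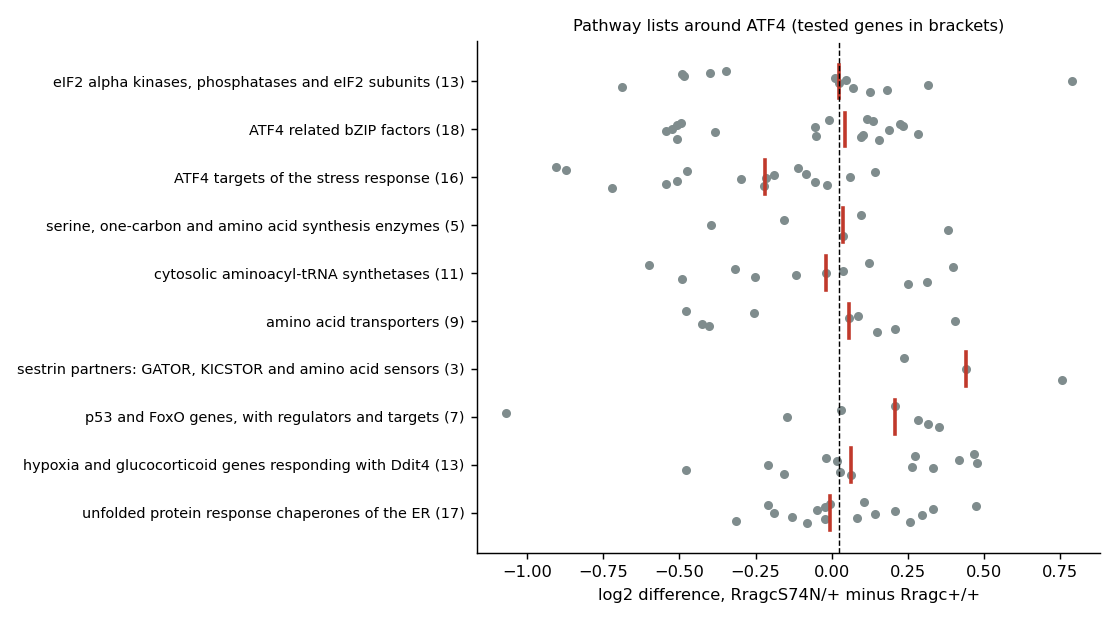
Log2 difference between RragcS74N/+ and Rragc+/+ (horizontal axis) for the tested genes of 10 pathway lists around ATF4, with 1 grey point for each gene, the list's median as a red bar and the median of all 6673 tested genes as a dashed line. The ATF4 targets of the stress response had a median of -0.22, and the medians of the other lists lay between -0.02 and 0.44.

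Upstream of ATF4, 13 genes for eIF2 kinases, Gcn1, phosphatases, and subunits of eIF2 and its exchange factor eIF2B had a median difference of 0.02. The differences were negative in 5 (Gcn1, Eif2s3x, Eif2b2, Eif2b4 and Eif2b5) and positive in 8. The most abundant, Eif2s2, encodes the beta subunit of eIF2 and had means of 614 ± 111 in Rragc+/+ (SD, n = 5) and of 619 ± 127 in RragcS74N/+ (SD, n = 4). At an unadjusted p under 0.05, 1 of the 13 was lower, against 3.81% of all genes tested. It was Eif2s3x, an X-linked gene for the gamma subunit (32.1 ± 5.78 and 22.7 ± 4.18, n = 5 and 4; log2 difference -0.48, limma, adjusted p = 0.713). Among 18 bZIP factors related to ATF4, the median difference was 0.04. Cebpb, described above, and Creb3 were lower at an unadjusted p under 0.05. Creb3, a factor of the endoplasmic reticulum membrane, measured 54.9 ± 6.35 (SD, n = 5) and 38.6 ± 7.16 (SD, n = 4) without overlap (log2 difference -0.51; limma, adjusted p = 0.713). The most abundant of these factors was Cebpd, at 1503 ± 438 (SD, n = 5) and 1655 ± 208 (SD, n = 4).

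The metabolic lists to which Asns and Slc3a2 belong by function had 0 genes at an unadjusted p under 0.05. Of 20 enzymes of serine, one-carbon and amino acid synthesis, 5 were listed and tested, with a median difference of 0.04. Among them, glutamine synthetase (Glul) measured 246 ± 24.7 (SD, n = 5) and 221 ± 30.6 (SD, n = 4), and the aminotransferase gene Got2 had the smallest p (173 ± 61.2 and 125.9 ± 12.8, n = 5 and 4; log2 difference -0.40, limma, adjusted p = 0.713). The 11 cytosolic aminoacyl-tRNA synthetases tested had a median of -0.02. Dars, for aspartate, was the most abundant (106 ± 12.1 and 128 ± 28.9, n = 5 and 4), and Sars, for serine, had the smallest p (43.2 ± 19.5 and 26.3 ± 5.13, n = 5 and 4; log2 difference -0.60, limma, adjusted p = 0.713). The 9 amino acid transporters had a median of 0.06. The most abundant was the taurine transporter Slc6a6 (347 ± 85.9 and 382 ± 76.6, n = 5 and 4), and the lysosomal histidine and peptide transporter Slc15a4 had the smallest p (54.3 ± 8.76 and 40.6 ± 9.16, n = 5 and 4; log2 difference -0.42, limma, adjusted p = 0.713).

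Partners and regulators of the growth-restraining genes, and other nutrient sensors, were sparsely listed. Of 15 genes for GATOR, KICSTOR and amino acid sensors, which like the sestrins act upstream of the Rag GTPases, 3 were tested. All 3 had a positive difference, with a median of 0.44. This median was 0.17 without Rragc+/+ replicate 2 and 0.24 with the GC trend removed. Bmt2, which encodes the S-adenosylmethionine sensor SAMTOR, was higher at an unadjusted p under 0.05 (71.9 ± 13.4 and 97.3 ± 14.4, n = 5 and 4; log2 difference 0.44, SE 0.19; limma, adjusted p = 0.713). The sestrin genes are targets of p53 and FoxO factors, and 7 genes of these pathways, FoxO factors themselves as well as regulators and other targets, had a median of 0.21 (0.034 with the GC trend removed). The differences were positive in 5 and negative in 2. These 7 are only part of the pathways: Bbc3 and Pmaip1, described above and also targets of p53, were not among them and had differences of -0.47 and -0.87. Foxo4 was lower at an unadjusted p under 0.05 (15.5 ± 7.38 and 6.53 ± 2.63, n = 5 and 4; log2 difference -1.07; limma, adjusted p = 0.713), and Klf2, a target of FoxO factors and the most abundant of this list, measured 908 ± 110 (SD, n = 5) and 921 ± 25.8 (SD, n = 4).

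For Ddit4, 13 genes of the hypoxia and glucocorticoid responses, which include mediators such as Hif1a and Nr3c1, had a median difference of 0.06. Nr3c1, which encodes the glucocorticoid receptor, was higher without overlap at an unadjusted p under 0.05 (113 ± 23.4 and 156 ± 23.3, n = 5 and 4; log2 difference 0.48; limma, adjusted p = 0.713). The hypoxia-induced mitophagy gene Bnip3 was lower without overlap (115 ± 26.1 and 81.3 ± 8.83, n = 5 and 4; log2 difference -0.48; limma, adjusted p = 0.713), whereas its relative Bnip3l, the most abundant of the list, measured 365 ± 84.8 (SD, n = 5) and 450.0 ± 36.5 (SD, n = 4). The 17 chaperones and degradation factors of the endoplasmic reticulum, whose stress also raises ATF4 through the kinase PERK, had a median of -0.01 and 0 genes at an unadjusted p under 0.05. Derl1 was both the most abundant and the one with the smallest p in this list (291 ± 28.8 and 251 ± 21.9, n = 5 and 4; log2 difference -0.21, limma, adjusted p = 0.724).

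All 13 neutrophil markers were listed, with a summed value of 143504 to 205334 in Rragc+/+ and 133436 to 227137 in RragcS74N/+. Among them was S100a9, the most abundant of the listed genes. Being listed does not measure the purity of the sort. The granule genes Elane, Mpo, Prtn3 and Ctsg, which mark early precursors, were not listed, and the 9 listed precursor and cell cycle genes summed to 455 to 929 and 477 to 772. Of 9 erythroid markers, 7 were listed, with overlapping sums of 1091 to 5609 in Rragc+/+ and 379 to 2158 in RragcS74N/+. Of the 6 tested, 5 were lower at an unadjusted p under 0.05, against 3.81% of all genes tested (limma, adjusted p = 0.713 for each). Car2, the other tested marker, had a positive log2 difference of 0.58. The erythroid sum in Rragc+/+ replicate 2, the highest library for Atf4, Ddit3 and Sesn2, was 2957. The part of these markers in the differences given above was not tested. Monocyte markers (3 of 8 listed, 0 of 3 at an unadjusted p under 0.05) summed to 2242 to 3472 and 2264 to 4027, mostly through Ly6c2. Ly6c2 and the neutrophil marker Ly6g were both lowest in RragcS74N/+ replicate 1 (2078 and 2036) and highest in replicate 4 (3919 and 4066). This sum can therefore not tell monocytes from neutrophils. Csf1r, the receptor of the monocyte growth factor, was lower in mean in RragcS74N/+ (177 ± 100.5 and 102 ± 25.4, n = 5 and 4; log2 difference -0.66, or -0.34 with the GC trend removed; limma, adjusted p = 0.713). It was highest in Rragc+/+ replicates 2, 3 and 4 (339, 189 and 168), which were also the 3 highest libraries for Atf4, Ddit3 and Sesn2, and its part in their differences was not tested. Csf1r, like Prg2, was named after its values were seen. Eosinophil and basophil markers (3 of 9 listed) summed to 46.9 to 121 and 51.7 to 206, and 1 of the 3 was higher at an unadjusted p under 0.05, the eosinophil granule gene Prg2 (30.4 ± 28.2 and 88.4 ± 71.2, n = 5 and 4; log2 difference 1.38; limma, adjusted p = 0.713). The B cell and T or NK cell lists each had 1 of 8 genes listed, Ighm at 87.6 to 140.3 and 83.5 to 123 and Cd3d at 14.5 to 28.9 and 14.6 to 18.8, and 0 of 5 platelet markers were listed. In bulk libraries, fewer cells that express a gene and less of its RNA in each cell cannot be told apart.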

How the data were processed

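Neutrophil RNA was profiled in 9 libraries by oligo-dT primed 3′-end sequencing, with molecular identifiers on the second-strand primers. According to the methods, TopHat2 alignment to GRCm39 was followed by stranded gene counting with HTSeq (version 0.6.1, GENCODE vM26). The deposited values are a signal: read counts that the authors divided by a size factor for each library, called normalized counts here. The sources used here state neither whether identifiers were used to collapse reads nor how the listed genes were chosen, so counting error covers counting alone. Every value (100%, within 0.01 read) was a whole multiple of that of 1 read, which gave 1214295 to 1973957 reads per library over listed genes. Each gene had reads in at least 7 libraries and reached 8 reads or more in 1 of them, so scarce genes were under-represented. The study describes 5 mice of each genotype, and 4 RragcS74N/+ libraries were analysed here.

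Libraries were grouped by labelled genotype and numbered in accession order, with 0 columns left without a sample. Values were analysed as log2(value + 1), which understates changes of low genes. limma (version 3.58.1, R 4.3.3) with trended moderation and genotype as the term was run on genes whose mean reached 10, with Benjamini-Hochberg adjustment. edgeR (version 4.0.16) and DESeq2 (version 1.42.0, 8 adjusted p-values missing) on recovered reads were alternatives, beside other pseudocounts, filters, scalings, weights, a GC correction and removal of single libraries. The procedure was tested on simulated counts. GC content came from GENCODE transcripts of GRCm38, matched by symbol for 7067 of 7197 genes.

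The genes, lists and tests were chosen with earlier results of these data known. Named from each list were the most abundant tested gene and those at an unadjusted p under 0.05 (up to 4, or the smallest p where none was), and for each listed gene the 3 with the most similar pattern. Overlap counts and correlations without single libraries, the overlap count with the GC trend removed, and repeats of the target counts were added after the data were seen.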

Additional observations from a re-analysis of the deposited data

Results flagged for a closer look

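In 72 sets of values of 1 genotype, a library was marked where its gap to the nearest of the others exceeded Dixon's 95% limit, which chance alone gives in about 3.6 sets, and 3 were found. All 3 were in Rragc+/+. Bnip3 was high in replicate 2, at 161 normalized counts against 109 in the next library (gap over range 0.808). The mean Spearman correlation with the other libraries was low in replicate 2, 0.901 against 0.939 (gap over range 0.788). The summed eosinophil and basophil markers were high in replicate 5, 121 against 59.5 (gap over range 0.830). None of the values of Atf4, Ddit3, Sesn2, Slc3a2, Ddit4 and Asns met this limit.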

How the results depend on the processing

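No paired analysis was possible because replicates carry no number in the labels. Under every alternative run, 0 of the 6 genes and 0 pathway genes passed the adjusted threshold, and no difference among the 6 genes turned its sign. The log2 difference ranged from -1.04 to -0.53 for Ddit3, -0.82 to -0.42 for Sesn2, -0.61 to -0.29 for Atf4, -0.32 to -0.02 for Slc3a2, 0.10 to 0.46 for Ddit4 and 0.28 to 0.53 for Asns, and the smallest adjusted p was 0.326. The unadjusted p was under 0.05 in 20 of 20 alternatives for Ddit3, 19 of 20 for Sesn2 and 5 of 20 for Atf4. All alternatives reuse the same 9 libraries, so these counts are not independent repeats. The share of all genes lower by this rule ranged from 1.87% to 8.07% between settings. It was highest in the 5 settings that counted for Atf4: DESeq2 (4.87%), edgeR (5.1%), array quality weights (6.46%), and without Rragc+/+ replicate 1 (5.33%) or replicate 5 (8.07%). With the GC trend removed, 1 of the 6 genes had an unadjusted p under 0.05, the median of the p53 and FoxO list was 0.034, and 1 correlation passed. Between 0 and 1 genes had no overlap when each library was left out. Of the correlations, 1 passed with genotype means removed, 1 without Rragc+/+ replicate 2, and 0 without the 2 farthest libraries. The transporter median was -0.15 with array quality weights, and the synthesis enzyme median -0.16 with a mean of at least 50. When each library was left out, medians ranged from -0.092 to 0.046 for the eIF2 list, -0.158 to 0.113 for synthesis enzymes and -0.043 to 0.211 for the hypoxia and glucocorticoid list. The cause was not tested, except that the filter left fewer genes. Of the 16 ATF4 stress targets, 12 (without Rragc+/+ replicate 1, and again without replicate 3) to 15 (array quality weights) had a negative difference. The count was 13 of 15 with the GC trend removed and 8 of 10 with a mean of at least 50. Of all genes, 46.2% to 51.4% were lower in the settings run. Between 2 (of 15, GC trend removed, 2.73% of all genes) and 6 (of 16, without Rragc+/+ replicate 5, 8.07%) were lower at an unadjusted p under 0.05. Ddit4 and Asns had at most 34 and 21 reads in a library, which limits their precision.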
